A study of Mus musculus with 2 samples.

Results

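The cytochrome P450 and detoxification enzymes were compared between reaggregation thymus organ culture (RTOC) and flat dish culture (2D culture) of mouse fetal thymic stromal cells. The members were taken by gene name as the array design gives it: cytochrome P450 genes (Cyp), glutathione transferases of the a, m, p, t, o and k classes (Gst), microsomal glutathione transferases (Mgst), UDP-glucuronosyltransferases (Ugt), sulfotransferases (Sult) and flavin monooxygenases (Fmo), without Cyp11a1 and the Cyp26 genes. This gave 119 genes with 173 probes and 182 spots per array, out of 27962 gene names and 41174 probes. All but 3 of the 119 names are still in use. The array's Cyp4a12, Cyp3a41 and Cyp2c44 are now called Cyp4a12a, Cyp3a41a and Cyp2c23.

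Thymic lobes of C57BL/6 fetuses had been kept in organ culture with 1.35 mM deoxyguanosine, which depletes dividing lymphocytes, for 8 days (lobes taken at embryonic stage E14.5) or 9 days (stage E15.5), and both cultures of this comparison therefore share that treatment. The lobes were then dispersed, and the stromal cells were either reaggregated on a membrane for RTOC or plated in a dish for 2D culture for 72 h. RNA of 2D culture was labelled with Cy3 and RNA of RTOC with Cy5, and 1 two-colour array was hybridised for each stage, so that each of the 2 arrays carries its own pair of cultures. Because stage, length of organ culture and array change together, they cannot be told apart. The dyes were not swapped, and both arrays were read from 1 slide in 1 scan. These stromal preparations hold several cell types, and fewer cells of a type cannot be told apart from less RNA per cell. Nothing says that the 2 experiments were repeated, and the p-values rest on these 2 arrays alone. In the limma fit the variance of each probe is drawn partly from all probes tested. The p-values and SEs therefore do not measure the spread of that probe between the 2 arrays by itself.

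Cytochrome P450 enzymes and flavin monooxygenases carry out the first step of detoxification, in which an oxygen atom is put into a lipid-soluble compound. Glutathione transferases, UDP-glucuronosyltransferases and sulfotransferases carry out the next step, in which glutathione, a sugar acid or sulfate is joined to the compound to make it soluble. Several P450 enzymes also make or break down the body's own signals, such as vitamin D, oxysterols, steroids and arachidonic acid. These enzymes are best known from liver, lung, olfactory mucosa and kidney, and many are induced by foreign compounds through the aryl hydrocarbon receptor, Nrf2 and nuclear receptors.

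Many of the members were dim. For each gene the brightest tested probe was used, and a probe was tested when at least 1 of its 2 channels was well above background, as the scanner software marks it, on each array. By this rule 59 of the 119 genes were tested and 60 were not. Each array is named below by its stage. By the probe used for each gene, 48 of the 119 genes were above background at E14.5 in 2D culture and 58 in RTOC, and at E15.5 these numbers were 52 and 66. Of the 60 genes not tested, 49 had no probe above background in any of the 4 channels, and the other 11 were above it on 1 array only. Signals below are quantile-normalized processed signals in arbitrary units, ratios are log2 of RTOC over 2D culture, and adjusted p-values are from limma over all 23685 probes tested on the array. An exact sign-flip test over 2 arrays cannot go below p = 0.5, so no gene was tested in that way.

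Of the 59 tested genes, 16 were higher in RTOC and 7 lower at an adjusted p under 0.05, and 36 were not called. This was 27.1% higher and 11.9% lower, against a background of 16.6% and 12.0% of the 16249 gene names tested on the array. The median ratio was 0.55 over the 59 genes and 0.05 over all gene names tested. A gene that is dim in 1 culture could pass only by being bright in the other, and the comparison over these 59 is therefore a description. Among the 44 genes above background in all 4 channels, 7 were higher and 6 lower, or 15.9% and 13.6%, against 12.9% and 11.8% of the 14034 gene names of that kind, so the shares of members called lay near those of the array. The ratios of the 59 genes on the 2 arrays had a Pearson correlation of 0.86 across genes, which are not independent replicates and share the same arrays, dyes and scan.

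**Figure D1:**
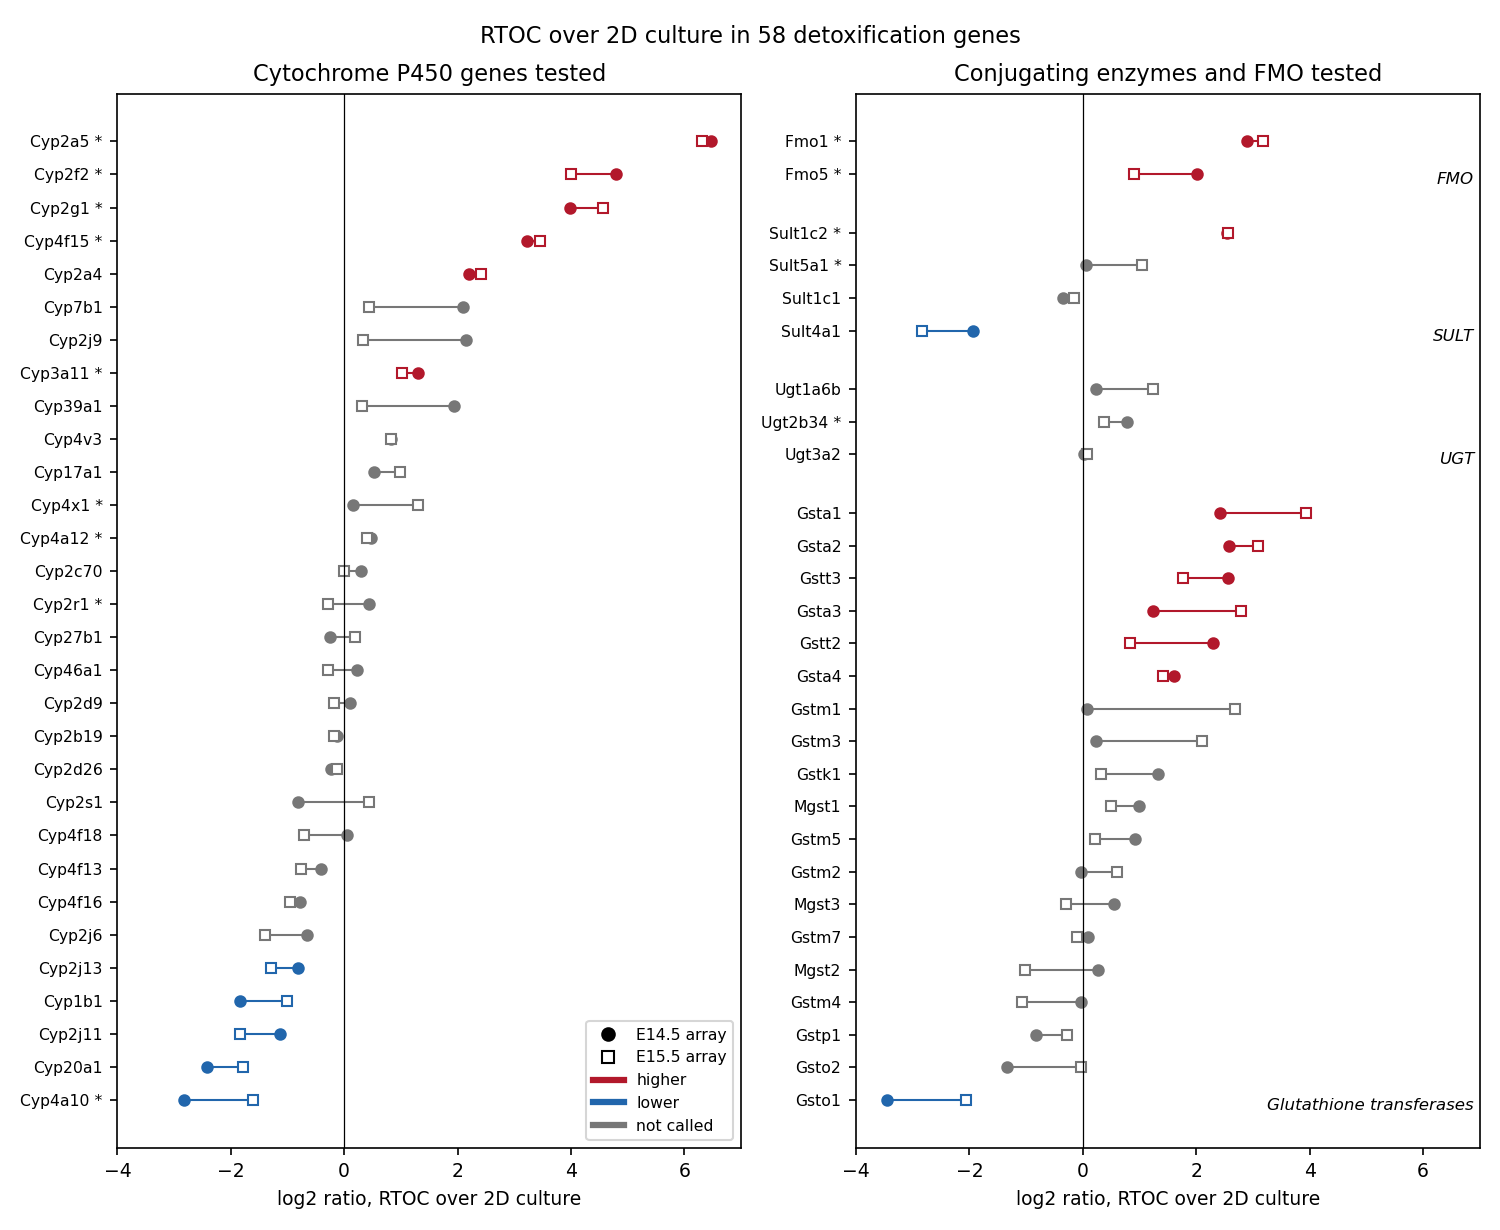
Ratios (log2, RTOC over 2D) of 58 of the 59 tested genes on the E14.5 array (filled circles) and the E15.5 array (open squares), with P450 genes on the left and the other enzymes on the right, coloured by the limma call at an adjusted p of 0.05 (red higher, blue lower, grey not called). An asterisk marks genes not above background in all 4 channels. The 4 Gsta genes, Fmo1 and Fmo5 lie to the right of 0 on both arrays, and Gstm1 lies near 0 on one array and at 2.68 on the other.

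The size of a ratio depended on how the background was treated. Processed signals carry no offset, whereas normexp background correction with an offset of 50, followed by loess within each array, pulls ratios of dim probes toward 0 by construction. After that treatment 9 genes were called higher and 2 lower, and all 11 were among the 23 called here. They were Cyp2a5, Cyp2f2, Cyp2g1, Cyp2a4, Gsta1, Gsta2, Gsta3, Gsta4 and Gstt3, which were higher, and Gsto1 and Cyp20a1, which were lower. The mean ratio shrank by more than 1.5 times in 19 of the 23 called genes, and Gsto1, Cyp1b1, Gstt3 and Gsta4 were the 4 in which it did not. Both steps were then changed singly, a check added after the data were seen. Normexp followed by quantile normalization also gave 9 higher and 2 lower and shrank 19 of the 23 by that much, whereas loess on processed signals gave 17 and 6 and shrank 0. After normexp with loess the ratio became 1.79 for Cyp2f2, 1.85 for Cyp2g1, 1.23 for Cyp2a4, 2.07 for Gsta1, 1.67 for Gsta2, 1.22 for Gsta3, 0.80 for Gstt2 and -1.27 for Cyp20a1. The other 12 calls, which include Cyp1b1, Gstt2, Sult4a1, Fmo1 and Fmo5, were lost under this treatment without a change of sign.

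**Figure D2:**
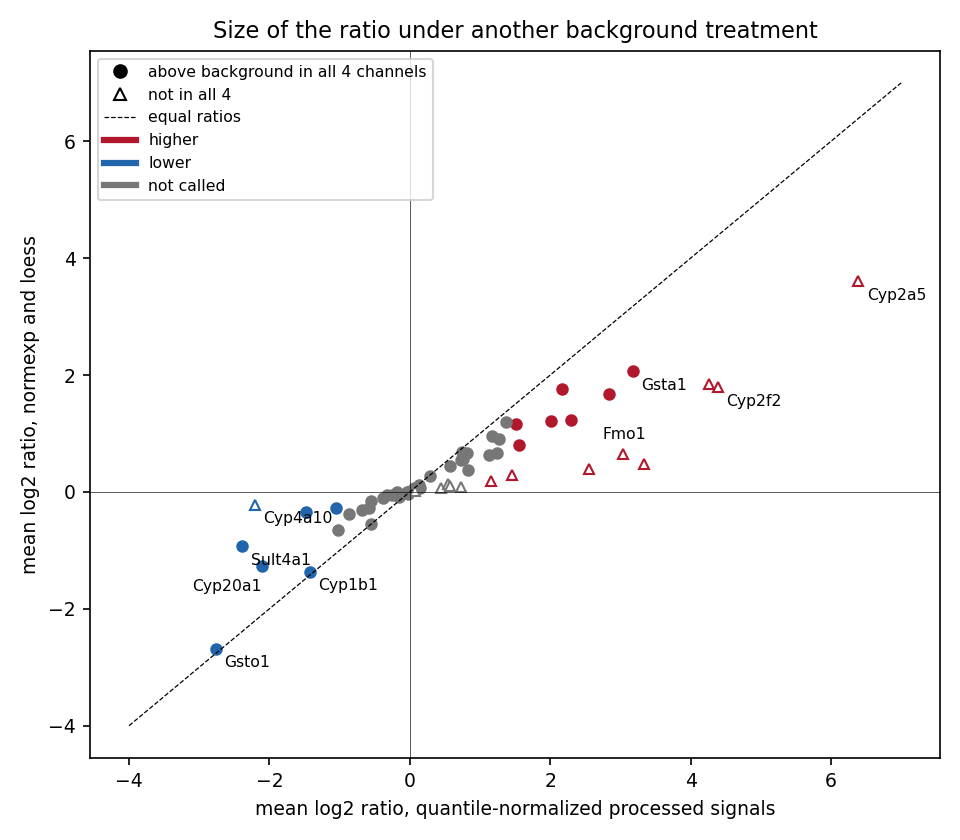
Mean log2 ratio of 58 of the 59 tested genes from normexp and loess (vertical axis) against that from quantile-normalized processed signals (horizontal axis), with circles for genes above background in all 4 channels, open triangles for the rest, and the dashed line for equal ratios. Bright genes such as Gsto1 and Cyp1b1 lie on the line, while Sult4a1 goes from -2.38 to -0.93 and Gsta1 from 3.18 to 2.07.

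Among the drug-metabolizing P450 genes, 10 of 33 were tested, 5 were higher in RTOC and none was lower. The background of 16.6% higher applies to these too, but 4 of the 5, namely Cyp2a5, Cyp2f2, Cyp2g1 and Cyp3a11, passed the filter on at least 1 array only through RTOC. Among the 6 genes above background in all 4 channels 1 was higher, against 12.9%. Cyp2a5, which hydroxylates coumarin and nicotine, had a signal of 54.3 in 2D culture and 4817 in RTOC at E14.5, and 89.9 and 7140 at E15.5. Both RTOC signals were far above both 2D signals, of which that at E14.5 was not above background. The mean ratio was 6.39 ± 0.11 (SD, n = 2 arrays, SE 0.25, adjusted p = 0.00161 from limma), and on the E15.5 array, the 1 array with both channels above background, it was 6.31. After normexp and loess it was 3.60. A further Cyp2a5 probe, whose 2D signal at E14.5 was not above background either, gave a mean ratio of 4.71 and was called higher too. Its ratio was 4.43 on the E15.5 array alone, and its mean was 2.52 after normexp and loess.

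Cyp2f2, the enzyme of lung club cells that activates naphthalene, gave signals of 31.7 in 2D culture and 873 in RTOC at E14.5, and of 147 and 2350 at E15.5. The cultures did not overlap, and the 2D signal was above background at E15.5 only. On that array the ratio was 4.00, and the mean of both was 4.39 ± 0.55 (SD, n = 2 arrays, limma adjusted p = 0.00163). Cyp2g1, a P450 of olfactory mucosa, went from 56.9 to 897 and from 84.7 to 1998, with a mean ratio of 4.27 ± 0.41 (SD, n = 2 arrays, limma adjusted p = 0.00161). Again the cultures stood apart on both arrays and the 2D signal at E14.5 was not above background, while the ratio at E15.5 was 4.56. The second Cyp2g1 probe was not tested, being above background only in RTOC at E15.5. Cyp2a4, which hydroxylates testosterone and other steroids, was above background in all 4 channels. Its signal was 158 in 2D culture and 725 in RTOC at E14.5, and 252 and 1335 at E15.5. The mean ratio was 2.30 ± 0.15 (SD, n = 2 arrays, limma adjusted p = 0.00367), and the second probe of the gene, with both 2D signals below background, was at least 3.65-fold higher by the bound described below for dim probes.

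These 4 genes lie in 1 stretch of a chromosome. In the mouse annotation (RefSeq, assembly GRCm38.p6) 18 protein-coding genes lie in a row on chromosome 7 from Cyp2s1 to Cyp2t4, and 14 of them have a probe on the array. Of these, 10 are members, 6 of the members were tested, and 4 were higher in RTOC, against 16.6% of all gene names tested. The stretch is described because these 4 genes lie in it, so that share is no result about the region. Of these 4, Cyp2g1, Cyp2a5 and Cyp2f2 passed the filter at E14.5 only through RTOC. The members above background in all 4 channels were Cyp2s1, Cyp2a4 and Cyp2b19, of which only Cyp2a4 was higher, against 12.9% of such gene names. Cyp2a4 is the sixth gene of the row, with 6 genes between it and Cyp2g1. Cyp2g1 and Cyp2a5 lie next to each other, and Cyp2f2 follows after Cyp2a22 and Cyp2a12. Cyp2b19, which lies beside Cyp2g1 on its other side and is a P450 of the epidermis, had signals between 126 and 143 in all 4 channels and ratios of -0.13 and -0.18. Cyp2s1, at the end of the row, had ratios of -0.82 and 0.44 and was not called. Cyp2b9, Cyp2b10 and Cyp2a12 were not above background in any channel. The members that were higher were thus interspersed with neighbours that were not called or dim, which is a description of 1 region with no test.

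**Figure D3:**
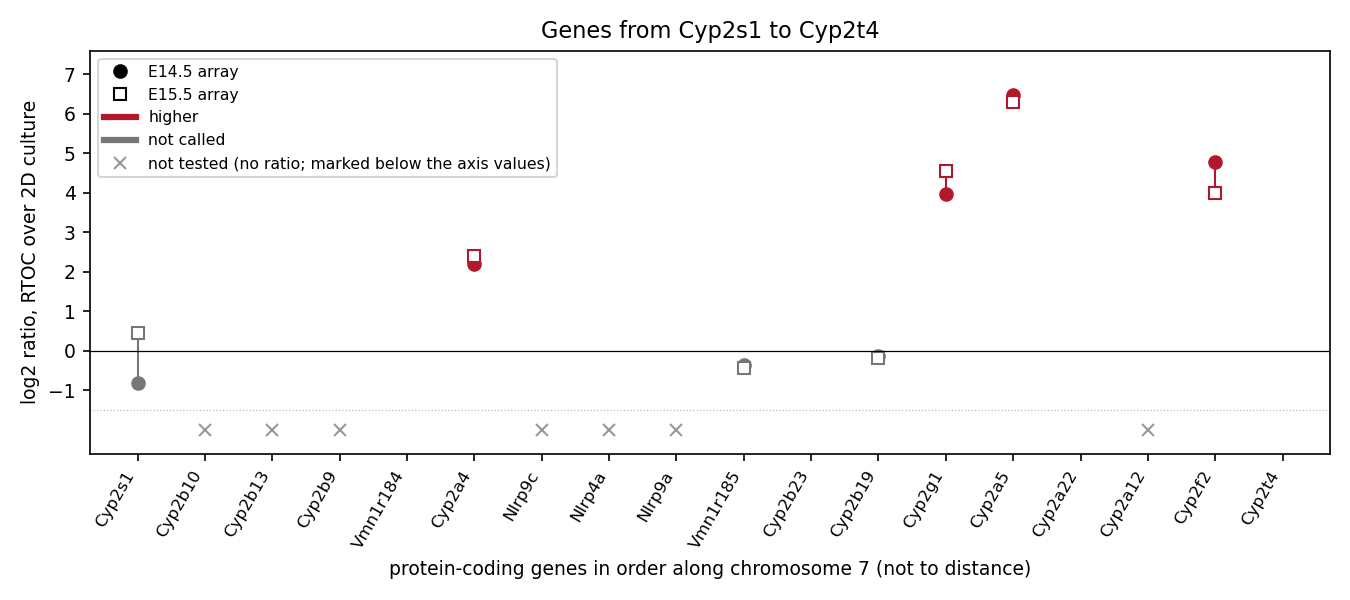
Log2 ratio of RTOC over 2D culture on each array (circles E14.5, squares E15.5) for the protein-coding genes from Cyp2s1 to Cyp2t4 in their order on chromosome 7, with crosses under the dotted line for genes that were not tested and no mark for genes without a probe. Cyp2a4, Cyp2g1, Cyp2a5 and Cyp2f2 lie above 2 on both arrays, Cyp2b19 lies near 0, and the arrays differ in sign for Cyp2s1.

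Cyp2a4 and Cyp2a5 are near-identical genes, and their probes may read each other's RNA. The second probe of Cyp2a4 shares a run of 28 bases with the main Cyp2a5 probe, and over the 38 bases in which the 2 probes overlap there are 3 mismatches. It also overlaps the second Cyp2a5 probe by 20 bases without a mismatch. The values of the 2 genes are therefore uncertain as those of separate genes. The shared runs are shown because they are what the 2 probe pairs have in common.
Cyp2a4 and Cyp2a5, main probe: gtagacttgcagaggatatttcaaaggt
Cyp2a4 and Cyp2a5, second probe: gtcaaaggtacagaagaaac

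The promoters of these genes are shown for the same reason, taken as the 250 bases before the start site in the RefSeq promoter table (build GRCm38.p6). Cyp2a4 lies at chr7:26306942-26307191, Cyp2a5 at chr7:26835089-26835338 and Cyp2f2 at chr7:27119705-27119954, all on the plus strand. With a shift of 1 base, 245 of 249 bases are the same in Cyp2a4 and Cyp2a5 (98.4%), whereas no shift of up to 10 bases brought Cyp2a5 and Cyp2f2 above 30.7%. Capitals mark TATAAA, the TATA box, which lies 29 to 24 bases before the start of Cyp2a5 and 28 to 23 before that of Cyp2a4.
Cyp2a4: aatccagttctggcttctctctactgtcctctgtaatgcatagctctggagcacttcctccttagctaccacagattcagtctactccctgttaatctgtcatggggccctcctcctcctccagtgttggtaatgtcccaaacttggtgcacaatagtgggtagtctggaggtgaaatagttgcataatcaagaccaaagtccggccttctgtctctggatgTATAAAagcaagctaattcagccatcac
Cyp2a5: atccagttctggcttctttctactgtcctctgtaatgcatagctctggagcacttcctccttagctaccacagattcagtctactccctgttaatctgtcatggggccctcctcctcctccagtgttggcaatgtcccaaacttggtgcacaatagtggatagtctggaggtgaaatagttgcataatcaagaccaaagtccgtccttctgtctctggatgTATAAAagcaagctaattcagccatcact
Cyp2f2: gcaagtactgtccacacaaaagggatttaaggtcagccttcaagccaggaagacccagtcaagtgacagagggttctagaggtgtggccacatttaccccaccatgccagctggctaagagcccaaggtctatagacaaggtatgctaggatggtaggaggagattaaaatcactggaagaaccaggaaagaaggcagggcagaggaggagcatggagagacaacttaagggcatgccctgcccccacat

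Of the other drug-metabolizing P450 genes of the Cyp2c, Cyp2d and Cyp3a subfamilies, only Cyp3a11 was called, and most were too dim to test. Of 11 Cyp2c genes, whose products act mainly in liver, 1 was tested, and it was Cyp2c70 with ratios of 0.29 and -0.01. Of 5 Cyp2d genes 2 were tested, Cyp2d9 and Cyp2d26, with mean ratios of -0.04 and -0.18. Of 6 Cyp3a genes only Cyp3a11, a major steroid and drug hydroxylase of mouse liver, was tested. Its signal was 56.3 in 2D culture and 139 in RTOC at E14.5, and 54.1 and 109 at E15.5. Neither 2D signal was above background, and Cyp3a11 was called higher in RTOC (adjusted p = 0.0255 from limma on processed signals). Its bound, a mean over the 2 arrays, was 1.14-fold, and the call was lost after normexp and loess. Cyp2e1, the P450 that oxidises ethanol, was not above background. For such bounds, channels were normalized by normexp, loess and Aquantile, and the bright one was divided, for each array, by the dim probe's own signal or by the dimmest signal marked as present in that channel, whichever was higher. For Cyp3a11, and for the second probes of Cyp2a4 and of Cyp4f16, the probe's own signal was the higher. Their bounds therefore equal the mean ratios of the 2 arrays after that treatment. All bounds are open to dye bias, and the p-values beside them belong to ratios of processed signals.

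Of the 3 P450 genes of the aryl hydrocarbon receptor response, 1 was tested, and it fell in RTOC. The background was 12.0% lower of all gene names tested, so that 1 of 1 is no result about the group. The tested gene was Cyp1b1, which oxidises polycyclic hydrocarbons and oestradiol, and it was above background in all 4 channels. Its signal was 14018 in 2D culture and 3905 in RTOC at E14.5, and 4889 and 2438 at E15.5. The cultures did not overlap, and the mean ratio was -1.42 ± 0.59 (SD, n = 2 arrays, SE 0.31, adjusted p = 0.0238 from limma). After normexp and loess the size of the ratio was close, at -1.36, but it was no longer called. The second Cyp1b1 probe was not tested, being above background only in 2D culture at E14.5, with 335 against 22.4 in RTOC. Cyp1a1 was not tested, since its only signal above background was 142 in 2D culture at E14.5, where RTOC gave 54.9. Cyp1a2 was not above background.

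The other genes of the aryl hydrocarbon receptor list were mixed. Of 8 genes 7 were tested, 2 were higher and 2 lower, against 16.6% and 12.0% of all gene names tested, and the median ratio was -0.20. Ahrr, the repressor of the receptor and a target of it, had a ratio of -1.35 (adjusted p = 0.0193 from limma), which was -0.46 after normexp and loess. Tiparp, a further target gene, had -1.26 (adjusted p = 0.0478 from limma). Nqo1, a quinone reductase under both the receptor and Nrf2, was higher, from 12498 to 25783 at E14.5 and from 3783 to 33533 at E15.5 (adjusted p = 0.0339 from limma). Arnt2 was called higher with 1.27, but its 2D signal at E14.5 was not above background and the ratio was 0.32 after normexp and loess. Ahr, the receptor itself, had -0.60 and Arnt, its partner, 0.16, and neither was called.

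The promoter of Cyp1b1 (chr17:79715062-79715311, minus strand, GRCm38.p6) is shown because the receptor binds the letters GCGTG, the core of the xenobiotic response element. Capitals mark the only match, which is on the opposite strand and lies 76 to 72 bases before the start.
Cyp1b1: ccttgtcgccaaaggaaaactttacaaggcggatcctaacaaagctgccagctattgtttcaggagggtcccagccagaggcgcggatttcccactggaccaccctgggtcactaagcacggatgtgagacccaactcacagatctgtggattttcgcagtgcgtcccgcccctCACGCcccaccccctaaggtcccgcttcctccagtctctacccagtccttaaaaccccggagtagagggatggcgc

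Promoters were found for 94 of the 119 genes. GCGTG, searched on both strands, was present before the start in 18 of the 94 (19.1%), against 28.2% of 32851 promoters of the same length. It was present in 1 of 11 promoters of genes called higher and in 3 of 5 of genes called lower, namely Cyp1b1, Cyp20a1 and Cyp2j13. Among genes not called it was present in 8 of 29, and among genes not tested in 6 of 49. These groups are small, and the split was not tested. The core of the antioxidant response element, TGACNNNGC, was present in 7 of the 94 (7.45%), against 10.2% of all. TATAAA was present in 29 of the 94 (30.9%), against 12.4% of all. GACGC, the core letters of Foxn1 sites with 1 flanking base, was present in 11 of the 94 (11.7%), against 22.6% of all. Such matches describe letters only, and a match is neither a bound site nor a cause. For 15 genes with more than 1 start site, only the first by position was read. The 32851 promoters were not cut to 1 start per gene in this way, so the shares compared are not of like sets.

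Of the P450 genes of vitamin D, bile acid and steroid metabolism 2, 3 and 1 were tested and none was called, against 16.6% higher and 12.0% lower of all gene names tested, which is no result about these groups. Of the vitamin D genes, Cyp2r1 and Cyp27b1, which add the first and the activating hydroxyl group, had mean ratios of 0.07 and -0.02, while Cyp24a1, which inactivates the hormone, and Cyp27a1 were not tested. Cyp7b1, which hydroxylates oxysterols, had signals of 384 in 2D culture and 1645 in RTOC at E14.5, and of 1325 and 1803 at E15.5. The RTOC signals were close to each other and the 2D signals were not, so that the ratio was 2.10 on one array and 0.44 on the other (mean 1.27 ± 1.17, SD, n = 2 arrays, limma adjusted p = 0.0786). Cyp39a1, which acts on an oxysterol of brain, showed the same shape with ratios of 1.94 and 0.31 (adjusted p = 0.104 from limma), and its second probe with 1.39 and 0.03. Cyp46a1, which makes that oxysterol, had 0.22 and -0.28. Cyp17a1, a P450 of steroid hormone synthesis, had 0.54 and 0.99 (adjusted p = 0.0856 from limma). Of 4 markers of steroid-producing cells, Star, Hsd3b1 and Cyp11a1 were not above background, whereas Nr5a1 was above it in all 4 channels, with 237 and 500 in 2D culture and 273 and 491 in RTOC.

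The fatty acid P450 genes were called in both directions. Of 17 genes 12 were tested, 1 was higher and 3 were lower, against backgrounds of 16.6% and 12.0%, and the median ratio was -0.45. Cyp4f15, a fatty acid hydroxylase, had signals of 24.9 in 2D culture and 233 in RTOC at E14.5, and of 26.2 and 286 at E15.5. Neither 2D signal was above background, and the gene was at least 1.39-fold higher in RTOC (adjusted p = 0.00181 from limma). After normexp and loess Cyp4f15 was no longer called (adjusted p = 0.0747 from limma). The Cyp2j genes, epoxygenases of arachidonic acid, were all above background in all 4 channels where tested. Cyp2j11 had ratios of -1.12 and -1.84 (adjusted p = 0.0188 from limma) and Cyp2j13 had -0.82 and -1.28 (adjusted p = 0.0379 from limma), and both fell. After normexp and loess their mean ratios were -0.34 and -0.27 and neither was called.

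Cyp2j6 had -0.66 and -1.39 with an adjusted p of 0.0515 from limma, just above the threshold, and was not called. Cyp2j9 ran the other way, with ratios of 2.15 and 0.33, and was not called (adjusted p = 0.0979 from limma). The probes of Cyp2j11 and Cyp2j13 share 18 bases in a row, and their overlap of 30 bases holds 2 mismatches, so the 2 genes may not be read separately. Their remaining probes were not above background in any channel. Cyp4a10, an omega-hydroxylase of fatty acids that PPAR alpha induces, had signals of 119 and 128 in 2D culture and of 16.9 and 42.1 in RTOC, where it was not above background. It was at least 1.15-fold lower in RTOC (adjusted p = 0.0107 from limma), and the remaining 2 probes of the gene were not above background. The Cyp4a10 call was lost after normexp and loess. Cyp4f13 and Cyp4f16 had mean ratios of -0.59 and -0.87 and were not called by the main probe. The second Cyp4f16 probe, which was not above background in RTOC, was called at least 1.25-fold lower (adjusted p = 0.0205 from limma).

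Cyp20a1, a P450 with no known substrate, was above background in all 4 channels and fell in RTOC. Its signal was 2224 in 2D culture and 416 in RTOC at E14.5, and 1641 and 479 at E15.5. The cultures did not overlap, and the mean ratio was -2.10 ± 0.45 (SD, n = 2 arrays, limma adjusted p = 0.00627).

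Among the glutathione transferases, 19 of 21 genes were tested, all of them above background in all 4 channels. Of these, 6 were higher and 1 was lower, against backgrounds of 12.9% and 11.8% for genes of that kind, and the median ratio was 0.75. The 4 alpha-class genes, which detoxify lipid peroxidation products and steroid ketones, were all higher. Gsta1 had signals of 1281 in 2D culture and 6860 in RTOC at E14.5, and of 115 and 1752 at E15.5. Both cultures were brighter at E14.5, and the lowest RTOC signal was above the highest 2D signal. The mean ratio was 3.18 ± 1.07 (SD, n = 2 arrays, SE 0.41, adjusted p = 0.00537 from limma).

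Gsta2 had the same order of signals, with 673 and 4042 at E14.5 and 134 and 1146 at E15.5, and a mean ratio of 2.84 ± 0.36 (SD, n = 2 arrays, limma adjusted p = 0.00268). The probes of Gsta1 and Gsta2 share 20 bases in a row with 1 mismatch in an overlap of 28 bases, so the 2 genes are uncertain as separate readings. The shared run is
Gsta1 and Gsta2: cagaaggtattttagatctg

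Gsta3 had signals of 536 in 2D culture and 1259 in RTOC at E14.5, and of 171 and 1177 at E15.5. The RTOC signals were close and the 2D signals were not, with a mean ratio of 2.01 ± 1.098 (SD, n = 2 arrays, limma adjusted p = 0.0210), and the second probe gave 1.52. Its promoter (chr1:21240335-21240584, plus strand, GRCm38.p6) is shown because it alone among the promoters of genes called higher holds TGACNNNGC, in capitals, 121 to 113 bases before the start.
Gsta3: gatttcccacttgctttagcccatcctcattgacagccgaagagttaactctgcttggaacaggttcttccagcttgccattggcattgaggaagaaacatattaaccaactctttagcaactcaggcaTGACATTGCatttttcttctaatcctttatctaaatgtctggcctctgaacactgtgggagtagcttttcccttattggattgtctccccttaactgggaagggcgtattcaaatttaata

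Gsta4, the alpha-class enzyme with a preference for hydroxynonenal, had the most even ratios of the class. Its signal was 798 in 2D culture and 2436 in RTOC at E14.5, and 1074 and 2848 at E15.5. The mean ratio was 1.51 ± 0.14 (SD, n = 2 arrays, limma adjusted p = 0.0118). Gsta4 is the only member printed 10 times on each array, and its ratio varied between those spots with an SD of 0.08 at E14.5 and 0.07 at E15.5.

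Of the theta class, which acts on small halogenated compounds, Gstt3 and Gstt2 were higher and Gstt1 was not tested. Gstt3 had signals of 771 in 2D culture and 4523 in RTOC at E14.5, and of 3782 and 12934 at E15.5. Both cultures were brighter at E15.5, the reverse of Gsta1, and the mean ratio was 2.16 ± 0.55 (SD, n = 2 arrays, limma adjusted p = 0.00665). Gstt2 had ratios of 2.29 and 0.82 (adjusted p = 0.0383 from limma).

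Gsto1, an omega-class enzyme that reduces dehydroascorbate and arsenic compounds, was the member with the lowest mean ratio. Its signal was 76843 in 2D culture and 7000.1 in RTOC at E14.5, and 27536 and 6602 at E15.5. The RTOC signals were nearly equal, the 2D signals were both higher, and the mean ratio was -2.76 ± 0.99 (SD, n = 2 arrays, SE 0.39, adjusted p = 0.00698 from limma). This is 6.77-fold lower on this scale, and the ratio was -2.68 after normexp and loess. Gsto2, its neighbour, had ratios of -1.34 and -0.03 and was not called.

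The mu class, which conjugates epoxides and quinones, had 6 of 7 genes tested and none called, against 12.9% higher and 11.8% lower of genes above background in all 4 channels, so that 0 of 6 is no result about the class. Gstm1 had signals of 10838 in 2D culture and 11369 in RTOC at E14.5, and of 4359 and 27895 at E15.5. The ratio was thus 0.07 on one array and 2.68 on the other, the widest gap between arrays of any tested member (mean 1.37 ± 1.84, SD, n = 2 arrays, limma adjusted p = 0.145). The second Gstm1 probe gave -0.52 and 1.59. Gstm3 followed the same shape, with 0.23 and 2.11 (adjusted p = 0.118 from limma). Gstm2, Gstm4, Gstm5 and Gstm7 had mean ratios between -0.55 and 0.57. These genes are close copies of each other, and which of them a probe reads is uncertain.

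Gstp1, the pi-class enzyme, was bright in all 4 channels, with 34646 and 25638 in 2D culture and 19540 and 21249 in RTOC, and its ratios of -0.83 and -0.27 were not called (adjusted p = 0.187 from limma). Gstk1, of mitochondria and peroxisomes, had 1.32 and 0.32 and was not called. Mgst1, the microsomal enzyme, had 0.99 and 0.51 by its main probe (adjusted p = 0.0915 from limma), whereas its second probe, at 1.33 and 0.80, was called higher (adjusted p = 0.0383 from limma). Mgst2 and Mgst3 had mean ratios of -0.38 and 0.13.

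**Figure D4:**
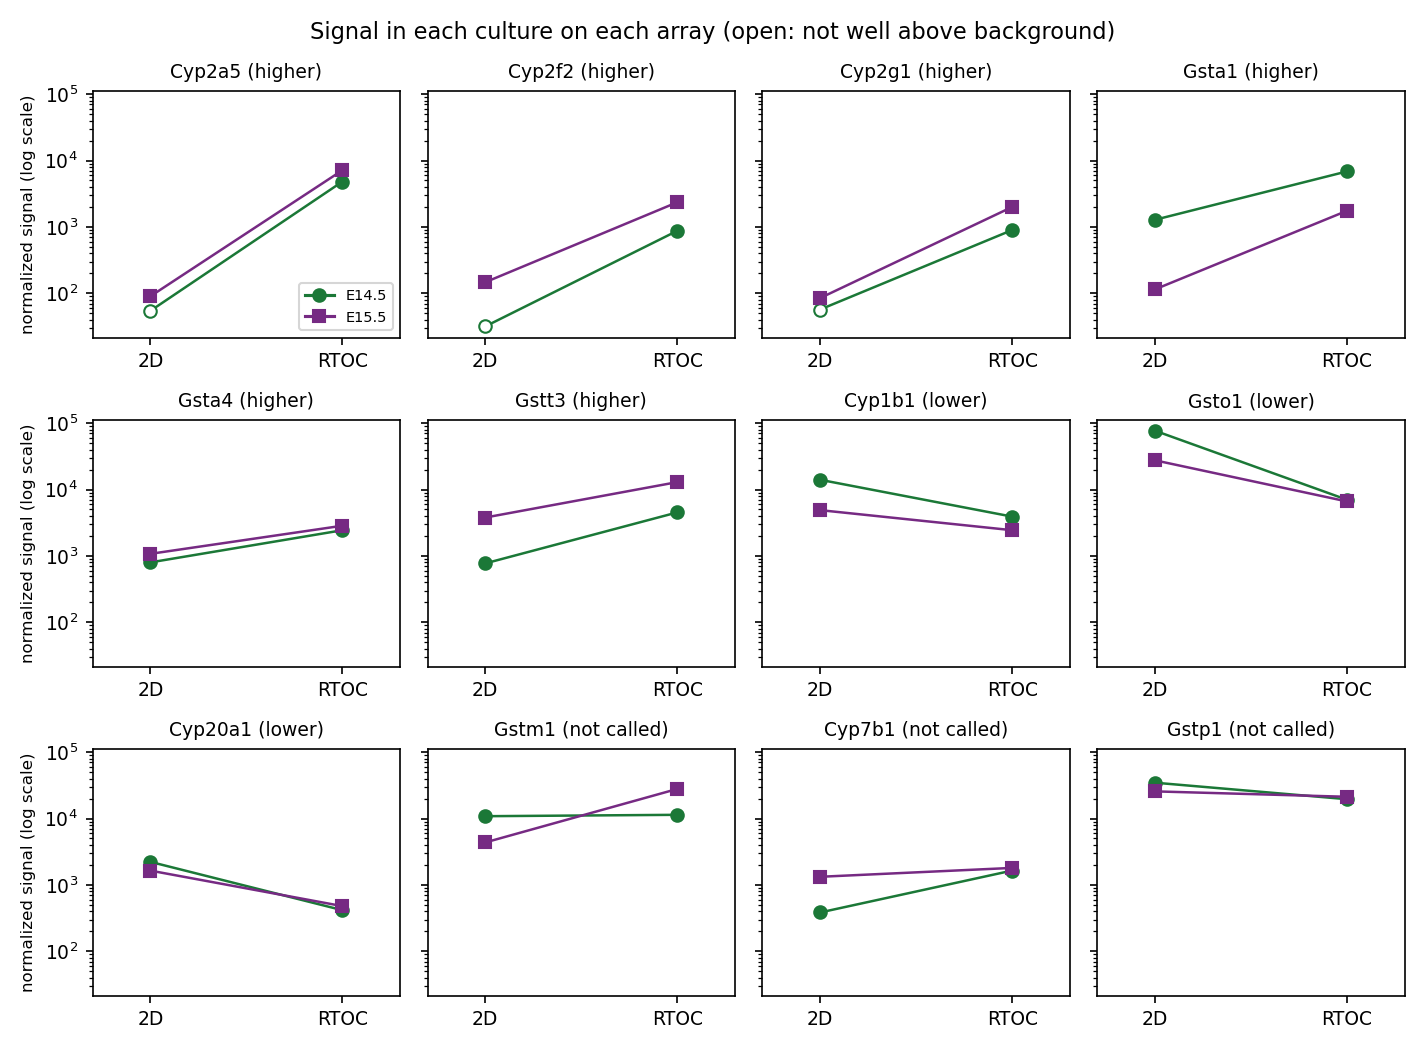
Quantile-normalized signal (log axis, arbitrary units) of 12 members in 2D culture and RTOC on the E14.5 array (green circles) and the E15.5 array (purple squares), with open symbols where the signal was not well above background. Cyp2a5 rises from 54.3 and 89.9 to 4817 and 7140, Gsto1 falls from 76843 and 27536 to 7000.1 and 6602, and the lines of Gstm1 cross.

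Flavin monooxygenases oxidise nitrogen and sulfur in amines and drugs. Among them Fmo1 and Fmo5 were called higher in RTOC, against 16.6% of all gene names tested, and neither was above background in all 4 channels. Both passed the filter on at least 1 array only through RTOC, and neither was called after normexp and loess. Fmo1 had 17.0 and 60.5 in 2D culture and 126 and 549 in RTOC, and was at least 1.56-fold higher (adjusted p = 0.00227 from limma), while its second probe was not above background in any channel. Fmo5 was above background in 2D culture at E15.5 only, where its ratio was 0.90, and with the E14.5 array it was called higher (adjusted p = 0.0307 from limma). Fmo2 was above background only in RTOC at E15.5, where its brighter probe gave 177 against 22.2 in 2D culture.

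Of 11 sulfotransferases 4 were tested, 1 was higher and 1 lower, against 16.6% and 12.0% of all gene names tested. Sult1c2 had signals of 30.3 and 38.4 in 2D culture, not above background, and of 176 and 227 in RTOC, and was at least 1.31-fold higher there (adjusted p = 0.00283 from limma). The Sult1c2 call was lost after normexp and loess. Sult4a1, a sulfotransferase of brain with no known substrate, had signals of 393 in 2D culture and 103 in RTOC at E14.5, and of 909 and 128 at E15.5. The cultures did not overlap, and the mean ratio was -2.38 ± 0.63 (SD, n = 2 arrays, limma adjusted p = 0.00582). After normexp and loess it was -0.93 and not called, and the second probe was not above background. Sult1a1 and Sult2b1, which sulfate phenols and cholesterol, were not tested.

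Of 14 UDP-glucuronosyltransferases 3 were tested and none was called, against 16.6% higher and 12.0% lower of all gene names tested, so that 0 of 3 is no result about the family. Ugt1a6b, which conjugates phenols, had ratios of 0.23 and 1.24 (adjusted p = 0.148 from limma). Ugt2b34 had 0.78 and 0.37 and Ugt3a2 had 0.03 and 0.08. Ugt1a1, which conjugates bilirubin, and Ugt8a, which makes galactosylceramide, were not above background.

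The genes that feed these enzymes were mixed as well. The counts of these lists stand against 16.6% higher and 12.0% lower of all gene names tested, or 12.9% and 11.8% of those above background in all 4 channels. Of 7 electron donors, 2 were higher and 1 was lower. Por, the reductase that supplies electrons to all microsomal P450 enzymes, fell with a ratio of -0.94 (adjusted p = 0.0469 from limma), while Fdxr, which supplies those of mitochondria, rose with 1.70 (adjusted p = 0.0108 from limma) and Cyb5a with 1.37. Of 11 tested genes of glutathione supply, 1 was higher and 2 were lower. Ggt5, which cleaves glutathione conjugates outside the cell, went from 189 to 2117 and from 554 to 2864 (adjusted p = 0.00426 from limma), whereas Gclc and Gclm, the subunits of the enzyme that limits glutathione synthesis, had -0.38 and -0.62 and were not called.

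Of 17 genes of the Nrf2 list, all tested, Nqo1 was higher and 4 were lower, with a median of -0.43. All 17 were above background in all 4 channels, where the background was 12.9% higher and 11.8% lower. Slc7a11, the cystine importer, went from 2007.4 to 72.4 and from 310 to 73.5 (adjusted p = 0.0154 from limma), and Me1, Gsr and Abcc1 were the other 3 that fell. Of the cofactor genes, Papss1 and Papss2, which make the sulfate donor, were called. Papss1 was higher with 1.25, and Papss2, which was not above background in RTOC, was at least 1.18-fold lower there (adjusted p = 0.00339 from limma). Of 6 tested efflux transporters 3 fell, Abcb1b with -2.78, Abcc1 with -1.23 and Abcg2 with -0.95, and none rose. All 6 were above background in all 4 channels, where 11.8% of gene names were lower and 12.9% higher. After normexp and loess Slc7a11 had -1.32 and Abcb1b -1.15. Of 17 other detoxification enzymes tested, 3 rose and 3 fell. Ces1d, a carboxylesterase, rose with 4.63, and Ephx1, the microsomal epoxide hydrolase, and Nnmt, a methyltransferase, both fell with -2.23. These became 2.85 for Ces1d and -1.32 for Nnmt with normexp and loess. Of 6 tested nuclear receptors of the xenobiotic list, 4 were higher, namely Rxra, Ppara, Nr1h4 and Nr3c1, against 16.6% of all gene names tested. Only Rxra and Nr3c1 of these were above background in all 4 channels, as were 4 of the 6. Both 2D signals of Ppara were below background, which bounds its rise at 1.21-fold or more, and Nr1h4 was not above it in 2D culture at E15.5. Nr1i2 and Nr1i3, the pregnane and androstane receptors, were not above background.

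Some markers of cell types were called between the cultures and others were not. The counts stand against the same shares of 16.6% higher and 12.0% lower. All 8 markers of thymic epithelium were above background in all 4 channels, 3 were higher in RTOC and 2 lower, and their summed signal was 291243 and 603654 in 2D culture and 691772 and 764954 in RTOC. Sums of this kind are carried by the brightest probes. Here these included Krt8 with 130796 and Krt18 with 109141 in 2D culture at E14.5, and neither gene was called. Of 5 endothelial markers 4 were higher, with sums of 1469 and 556 in 2D culture and of 6376 and 9892 in RTOC. Of these 4, Pecam1, Cdh5 and Tek were not above background in 2D culture on either array, and of the 2 markers above it in all 4 channels 1 was higher. Of 6 macrophage markers 3 were higher, with sums of 71433 and 60589 against 169412 and 221596. Of 7 mesenchymal markers 3 were higher and 3 lower, with sums of 303441 and 249215 against 231183 and 245294. Of 6 hepatocyte markers 4 were tested and 2 were higher, with sums of 733 and 541 against 4930 and 1327. These 2 were Afp and Alb, of which Alb was not above background in 2D culture. Tat and Hnf4a were above background in all 4 channels, with mean ratios of -0.12 and -0.04, and were not called. Ttr and Apoa1 were not above background. Of 5 T-lineage markers, Cd3e was above background in all 4 channels, with signals from 210 to 302, Ptcra in RTOC on both arrays, Rag1 in RTOC at E14.5, Cd4 in RTOC at E15.5 and Cd8a in none. The 2 that were tested, Cd3e and Ptcra, were not called. The part of these cell types in the ratios of the detoxification genes was not tested.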

How the data were processed

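Both samples are two-colour Agilent whole mouse genome arrays. The authors ran Feature Extraction (version 11.5.1.1 per the labels), and the deposited processed signals are intensity values from which background was subtracted, with the dyes of an array balanced. The deposited mean and background signals are intensities too. The deposited log ratio and the series values are log10 of Cy5 (RTOC) over Cy3 (2D culture), and the series values matched the ratio of processed signals. The authors' methods name quantile normalization, which was applied here to the log2 processed signals of the 4 channels. Labels and methods differ on the RNA extraction (TRIzol or a column kit). Control spots and spots flagged as non-uniform (5 on the E14.5 array, 1 on the E15.5 array, none of them of a member) were left out, and spots of a probe were averaged.

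Ratios were tested with limma 3.58.1 in R 4.3.3 against 0 over 2 arrays, with Benjamini-Hochberg adjustment over 23685 probes and a threshold of 0.05, checked on simulated data. Across the channels, 53.1% to 60.9% of the probes were well above background, and the number of arrays limits the precision. Each gene is given by its brightest tested probe. Every tested member may be named. Full statistics go to at most the 15 highest and 15 lowest called members above background in all 4 channels, the 10 highest bounds each way, and a fixed list of well-known enzymes. Of these, Ugt1a6a was not found under that name. One member enters the counts but is not reported here by itself or drawn. The members, lists and tests were chosen with earlier results of these data known. Marker and pathway genes were matched through RefSeq accessions, symbols and older symbols (8455 of 41174 probes had no match). Alternatives were other background corrections and normalizations (together and, added later, singly), the deposited ratios, other filters, each array left out, no replicate block, another variance fit, the methods' t-test and the median over probes.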

Additional observations from a re-analysis of the deposited data

How the results depend on the processing

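The counts of members called depended on the processing. Against 16 higher and 7 lower, normexp with loess gave 9 and 2, as did normexp with loess and Aquantile, and without a filter on dim probes limma called 0 and 0, with 17 and 10 at an unadjusted p under 0.05. Requiring all 4 channels above background gave 8 higher and 8 lower, and the fit that takes the 4 channels as separate samples, with no replicate block, gave 9 higher and 5 lower. The methods' t-test gave 8 higher and 0 lower unadjusted and 0 and 0 after Benjamini-Hochberg. The counts kept within 1.5 times under the deposited log ratios and series values (16 and 8 each), median centring (21 and 6), trend and robust fitting (15 and 9) and the median over probes (16 and 8). No called member changed sign under any alternative run, and every called member kept its sign on either array alone, where no count can be given for lack of a test. A call over 2 arrays needs a mean ratio that is large against its spread. The same sign on either array is thus nearly given by the call and is no further support. Under median centring of all probes, the median ratio of the tested probes was 0.06 at E14.5 and 0.24 at E15.5. Members near 0 that were not called changed sign: Cyp2d26 (0.0014) and Cyp2d9 (0.0036) after normexp and loess with or without Aquantile, Gstm7 (0.10), Cyp27b1 (0.0148) and Cyp46a1 (0.0089) in the deposited ratios and series values, and under median centring Gstm7 (0.25), Cyp2d26 (0.0625), Cyp27b1 (0.16), Cyp2b19 (0.0690), Cyp46a1 (0.16) and Cyp2d9 (0.12). The cause was not tested. In 2 settings chosen after seeing the data, normexp with quantile normalization gave 9 higher and 2 lower, and loess on processed signals gave 17 and 6, with Gstm7 (0.0926), Cyp27b1 (0.0654), Cyp46a1 (0.0595) and Cyp2d9 (0.0429) changing sign. Of the 23 called members, 19 shrank by more than 1.5 times after normexp with either normalization and 0 after loess alone, so the size of these ratios depends on the background correction. Those that shrank include Cyp2a5, Cyp2j11 (-0.34 with loess), Cyp2j13 (-0.27) and Sult4a1 (-0.93), while Gsto1, Cyp1b1, Gstt3 and Gsta4 did not shrink by that much. Signal over background limits the members given as bounds.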
